A study of Caenorhabditis elegans with 20 samples.

Results

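The genes of the cytosolic ribosomal proteins were followed in cells of the somatic gonad and of whole animals during the first larval stage of Caenorhabditis elegans. They were taken by name, as the genes called rps, rpl or rla followed by a hyphen and a number, which gave 78 of the 19861 named genes in both expression tables. Of these, 31 encode proteins of the small subunit (rps), 45 are named for the large subunit (rpl) and 2 encode the acidic proteins of the large subunit's stalk (rla). The series holds 20 samples in 8 groups, formed by cell population, sex and time after the start of feeding. Gonadal cells were Z1 and Z4, the precursors of the somatic gonad, at 9.5 hr, and their daughters at 15 hr. Sorting relied on the array rdIs4, in which the ehn-3a promoter drives the yellow protein Venus in this lineage. Whole-animal cells were dissociated in the same way and not sorted. All male groups came from strain DZ683, which carries tra-2(ar221), xol-1(y9) and rdIs4, and whose XX animals develop as pseudomales at the restrictive temperature. The hermaphrodite gonadal cells at both times and the hermaphrodite whole animals at 15 hr came from DZ685, with xol-1(y9) and rdIs4. The hermaphrodite whole animals at 9.5 hr came from an xol-1(y9) strain without rdIs4. The xol-1 mutation was therefore shared by every group, the males were not XO animals, and sex was compared together with the tra-2 allele. Every comparison with the hermaphrodite whole animals at 9.5 hr also set the presence of rdIs4 against its absence. There were 3 samples per group at 9.5 hr and 2 per group at 15 hr.

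Each ribosome joins a small subunit, which holds the messenger RNA and reads its codons, to a large subunit, where peptide bonds form and the new chain leaves through a tunnel. Ribosomal proteins are needed in nearly equal numbers, and in growing cells their messages are among the most abundant. In C. elegans the supply of new ribosomes is tied to feeding and to larval growth, which resumes when a hatched larva meets food.

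Expression was given as FPKM (fragments scaled to exon length and to the depth of the library) in 1 value per gene and group, which the authors pooled over the samples of that group. No value of a single sample was in the tables used here, so levels and ratios carry no replicate error and none of the differences below was tested or can be told from sample variation. Ratios are log2 of (FPKM + 1) in the first group over the second, and a gene entered a comparison if it reached 1 FPKM in 1 of its 2 groups. The summed FPKM of all genes lay between 692941 and 784031 in the 8 groups. Most listed markers of the somatic gonad precursors were higher in the sorted populations: of 11 genes, 6 to 8 exceeded whole animals at least 2-fold in the gonadal cells of the 4 comparisons, 1 in males and 2 in hermaphrodites at 9.5 hr were at least 2-fold lower, and their summed FPKM was 811 to 1092 in gonadal cells against 255 to 427 in whole animals. The gene ehn-3, whose promoter drives the label, was at 10.7 FPKM in male against 8.97 FPKM in hermaphrodite gonadal cells at 9.5 hr, and at 0.76 and 1.07 FPKM in male and hermaphrodite whole animals. At 15 hr ehn-3 was at 2.08 FPKM in male gonadal cells, against 0.26 FPKM in male whole animals, but at 0.29 FPKM in hermaphrodite gonadal cells, against 0.59 FPKM in hermaphrodite whole animals, so that it was the lower there in the sorted cells. Another gene of the list, hnd-1, was listed at 0 in male gonadal cells at 15 hr. Transcripts of other tissues were still listed in the sorted cells, and no gene of their marker lists was at 0 there. The 11 body wall muscle genes summed to 837 to 1514 FPKM in gonadal cells and 2860 to 3503 FPKM in whole animals, and the 10 neuronal genes to 336 to 584 FPKM in gonadal cells and 1764 to 1969 FPKM in whole animals. The pharynx, intestine, hypodermis and coelomocyte lists also summed lower in gonadal cells, although ceh-22 of the pharynx list and lin-26 of the hypodermis list are somatic gonad markers too. The 13 germline precursor genes summed higher there in all 4 comparisons, with 560 to 672 FPKM in gonadal cells and 427 to 527 FPKM in whole animals. Of the 12 germline genes compared, 5 to 7 were at least 2-fold lower in gonadal cells and 1 or 2 at least 2-fold higher. The part of such transcripts in the results below was not tested. In sorted or mixed bulk samples, fewer cells of a type and less RNA per cell cannot be told apart.

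The ribosomal protein genes formed a narrow band near the top of every library. Their median was 622 FPKM in male against 548 FPKM in hermaphrodite gonadal cells at 9.5 hr, and 539 FPKM in male against 336 FPKM in hermaphrodite gonadal cells at 15 hr. The whole-animal medians were 578 FPKM in males and 655 FPKM in hermaphrodites at 9.5 hr, and 429 FPKM in both sexes at 15 hr. The hermaphrodite gonadal cells at 15 hr had the lowest median of the 8 groups. By contrast, the median over all genes was 3.49 to 9.91 FPKM. Between 50 (hermaphrodite gonadal cells at 15 hr) and 69 (male gonadal cells at 9.5 hr) of the 78 genes were among the 100 highest of the group, and 69 to 75 were among the 200 highest. No member was listed at 0, 76 were at 100 FPKM or more in all 8 groups, and rpl-42 was the 1 member under 10 FPKM.

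The members also varied little among themselves. The 90th percentile of their FPKM was 1.75 times the 10th percentile in male gonadal cells at 9.5 hr, and 1.60 to 2.01 times over the 8 groups. The small-subunit genes were the tighter set, with a quotient of 1.25 to 1.31, against 1.99 to 2.40 for the large-subunit genes. Median levels of the subunits were close: in male gonadal cells at 9.5 hr they were 625 FPKM for the small and 620 FPKM for the large subunit. The members largely kept their order of levels between gonadal cells and whole animals. Spearman's rho of their FPKM was 0.94 to 0.99 in the 4 comparisons of gonadal cells with whole animals, against 0.87 to 0.89 over all genes, as a description over genes that share the same libraries. Between the sexes in gonadal cells at 15 hr it was 0.93 for the members, below the 0.95 over all genes.

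**Figure D1:**
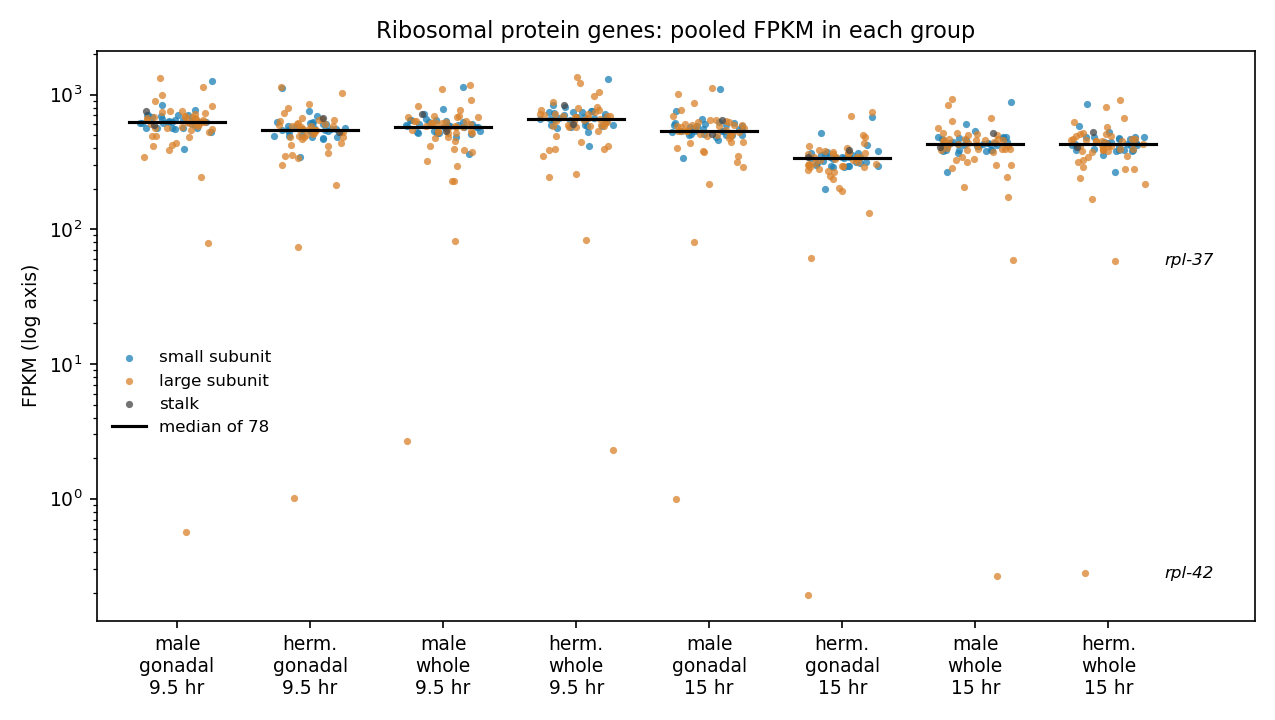
The pooled FPKM of the 78 ribosomal protein genes on a log axis, with 1 point per gene, in the 8 groups. Bars mark the medians, which run from 336 FPKM in hermaphrodite gonadal cells at 15 hr to 655 FPKM in hermaphrodite whole animals at 9.5 hr, and rpl-37 and rpl-42 sit below the band in every group.

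Of all the FPKM summed over genes, the 78 genes took 6.79% in male and 6.20% in hermaphrodite gonadal cells at 9.5 hr, against 6.46% in male and 7.23% in hermaphrodite whole animals. At 15 hr they took 5.44% in male and 3.63% in hermaphrodite gonadal cells, against 4.83% in both male and hermaphrodite whole animals. The share was thus highest in hermaphrodite whole animals at 9.5 hr and lowest in hermaphrodite gonadal cells at 15 hr. The large subunit supplied 2.05% to 4.02% of the summed FPKM and the small subunit 1.48% to 3.01%.

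Among small-subunit genes the highest in gonadal cells was rps-28, which encodes a small protein near the messenger RNA exit. Its FPKM was 1252 in male and 1114 in hermaphrodite gonadal cells at 9.5 hr and 1093 and 678 in male and hermaphrodite gonadal cells at 15 hr, against 1131 to 1313 in whole animals at 9.5 hr and 855 to 873 in whole animals at 15 hr. Next were rps-29 and rps-21, averaging 707 and 620.1 FPKM over the 4 gonadal groups on the log scale. The lowest were rps-20, rps-22 and rps-2, the last of which encodes a protein at the entry of the messenger RNA channel, with averages of 308, 429.8 and 444 FPKM. The genes of the decoding side lay within the band, and rps-23 and rps-15 were above the members' median in each of the 8 groups. For rps-23, whose product reaches into the decoding centre, male and hermaphrodite gonadal cells had 688 and 608 FPKM at 9.5 hr and 599 and 354 FPKM at 15 hr, against 643 and 744 FPKM in male and hermaphrodite whole animals at 9.5 hr and 478 and 479 FPKM at 15 hr. The gene rps-15, whose product also lies at that centre, had 681 and 599 FPKM in male and hermaphrodite gonadal cells at 9.5 hr and 589 and 356 FPKM at 15 hr. For rps-3, at the messenger RNA entry, the same 4 gonadal groups had 612, 529, 536 and 309 FPKM. The gene rps-6, whose product is the classic substrate of S6 kinase, had 567, 484, 485 and 297 FPKM in them. In all 4 genes hermaphrodite gonadal cells at 15 hr were the lowest of the 8 groups.

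Among large-subunit genes the highest in gonadal cells were rpl-29, rpl-39 and rpl-13, averaging 1055, 950.1 and 774 FPKM over the 4 gonadal groups on the log scale. The FPKM of rpl-29, at chrIV:13882198-13882595 of the ce10 build, was 1317 in male and 1139 in hermaphrodite gonadal cells at 9.5 hr, and it was 1114 in male and 742 in hermaphrodite gonadal cells at 15 hr. For rpl-39, a very small protein of the exit tunnel, the tables gave 1 entry span of 584481 bases on chromosome V, which rps-30 shares and which overlaps 152 other entries with rps-30 among them, so its place and its level are less certain. The lowest were rpl-42, rpl-37 and rpl-2, averaging 0.66, 73.5 and 196 FPKM. The gene rpl-2 encodes the worm counterpart of human RPL8, a core protein of the peptidyl transferase centre, and the entry spans 5699 bases for 864 bases of exon. The entry of rpl-37 (chrIII:3521133-3529714) spans 8582 bases for 276 bases of exon, and it overlaps another gene. Both low values therefore belong to entries that are long for their gene. Over all members, 9 entries overlap another entry of the tables and 6 span more than 4000 bases.

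Of further genes of the peptidyl transferase centre and the tunnel, rpl-3, rpl-10, rpl-4 and rpl-17 lay nearer to the median than rpl-2 and rpl-39. In male gonadal cells at 9.5 hr, rpl-3 had 576 FPKM, rpl-10 had 609.5 FPKM, rpl-4 had 494 FPKM and rpl-17 had 620.5 FPKM, while rpl-2 had 246 FPKM and rpl-39 had 1135 FPKM. In hermaphrodite gonadal cells at 15 hr rpl-3, rpl-10, rpl-4 and rpl-17 had 305, 305, 269 and 326 FPKM. The products of rpl-3 and rpl-10 border the site of peptide bond formation, and those of rpl-4 and rpl-17 line the exit tunnel. In the 5S particle, the unit of 5S RNA with RPL-5 and RPL-11, rpl-5 had 558 and 487 FPKM in male and hermaphrodite gonadal cells at 9.5 hr and 503 and 289.7 FPKM at 15 hr. The stalk, which recruits the elongation factors, was represented by rla-1 and rla-2. The FPKM of rla-1 was 754 and 670.4 in male and hermaphrodite gonadal cells at 9.5 hr and 649 and 386 at 15 hr, against 713 and 833 in male and hermaphrodite whole animals at 9.5 hr and 519 and 525 at 15 hr. The FPKM of rla-2 was lower, at 597 and 526 in male and hermaphrodite gonadal cells at 9.5 hr and 512 and 341 at 15 hr. In each of the 8 groups rla-1 was above rla-2.

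Shorter transcripts had higher FPKM. Summed exon lengths were found by name for 77 of the 78 genes, all except rpl-41. Spearman's rho between length and FPKM was −0.55 to −0.69 over these genes in the 8 groups, a description, since FPKM already divides by length and all genes share their libraries. In male gonadal cells at 9.5 hr the median was 764 FPKM for the 12 genes of up to 400 bases, 652 FPKM for the 32 genes of over 400 and up to 600 bases and 565 FPKM for the 33 longer ones. In hermaphrodite gonadal cells at 15 hr the 3 medians were 409, 346 and 297 FPKM. Of the 33 genes over 600 bases, 25 to 27 lay within 1.2-fold of their own median in every group. Among the 13005 non-member genes whose length was found by name and exceeded 600 bases, the tenth highest had 454 FPKM in male against 396 FPKM in hermaphrodite gonadal cells at 9.5 hr and 436 FPKM in male against 293 FPKM in hermaphrodite gonadal cells at 15 hr. Abundant genes without a matched length, such as rpa-0 (594 FPKM), eft-3 (561 FPKM) and eft-4 (533 FPKM) in male gonadal cells at 9.5 hr, are not in that set. Within it the highest in male gonadal cells at 9.5 hr was tct-1, with 605 FPKM, against a median of 565 FPKM for members over 600 bases. The highest FPKM of any named gene in that group was 1317, that of rpl-29. Whether the counting or processing of reads limited the highest values, and so narrowed the band, was not tested.

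**Figure D2:**
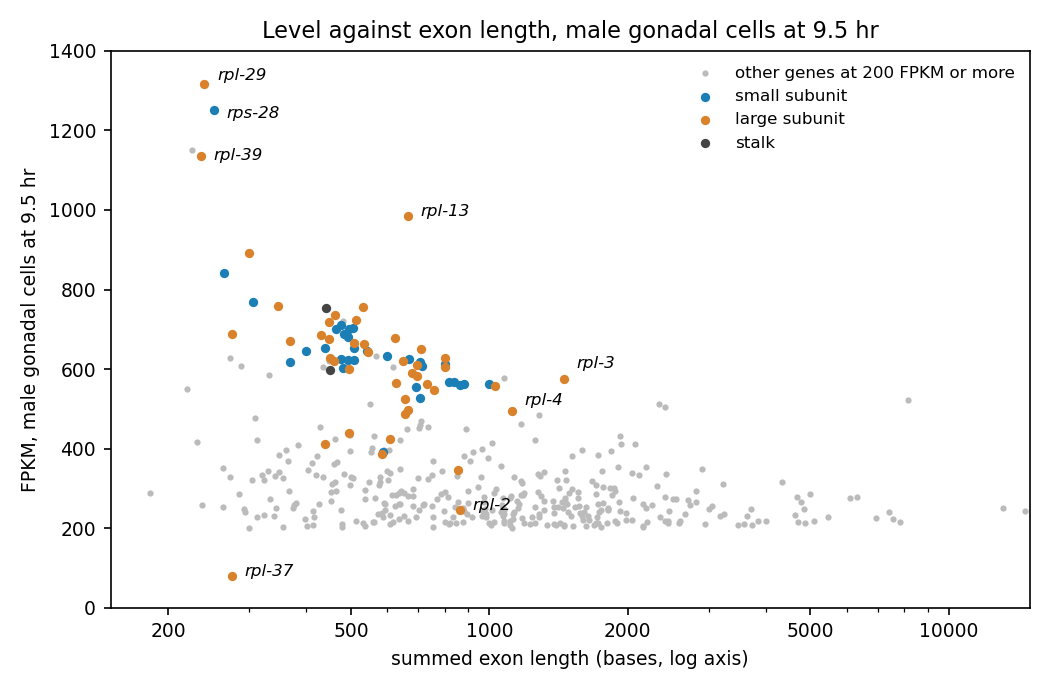
FPKM in male gonadal cells at 9.5 hr against summed exon length on a log axis, with 1 point per gene, for the ribosomal protein genes at 10 FPKM or more and, in grey, other genes at 200 FPKM or more whose length was found. The band of ribosomal protein genes slopes from 1317 FPKM for rpl-29 to 576 FPKM for rpl-3, the longest, with rpl-37 at 79.2 FPKM and rpl-2 at 246 FPKM below it and rpl-13 at 986 FPKM above it.

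The first comparison asked how gonadal cells differed from the whole animal. Relative to whole animals of the same sex and time, the ribosomal protein genes were slightly higher in male and slightly lower in hermaphrodite gonadal cells. In males their median log2 ratio was 0.11 at 9.5 hr and 0.34 at 15 hr, which are 1.08-fold and 1.27-fold, and 76 of 78 and 78 of 78 genes were above 0. In hermaphrodites it was −0.26 at 9.5 hr and −0.37 at 15 hr, which are 0.83-fold and 0.77-fold, with 2 of 78 and 3 of 77 genes above 0. All 31 small-subunit genes lay on the same side as the median in each of the 4 comparisons. Their medians were 0.11 and 0.34 in males and −0.27 and −0.39 in hermaphrodites at 9.5 and 15 hr, and those of the large subunit were 0.11, 0.34, −0.25 and −0.36. The subunits did not separate by more than 0.03 on the log2 scale in any of the 4.

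The members' ratios varied far less than those of the table as a whole, in which most genes were far less abundant. Whether a limit on the highest FPKM narrowed them was not tested. The middle 50% of member ratios spanned 0.04, 0.05, 0.06 and 0.11 on the log2 scale in males at 9.5 and 15 hr and hermaphrodites at 9.5 and 15 hr, against 1.77, 2.19, 1.92 and 2.63 over all genes. At a 2-fold threshold 1 member, rpl-42, was past it in males at 9.5 hr, where 41.9% of all genes were. None was past it in males at 15 hr (50.7% of all genes), in hermaphrodites at 9.5 hr (49.6%) or in hermaphrodites at 15 hr (57.4%). The all-gene medians were −0.29 and −0.10 in males and −0.62 and −0.22 in hermaphrodites at 9.5 and 15 hr. Set against them, the members were 0.40, 0.44 and 0.35 higher in males at 9.5 hr, males at 15 hr and hermaphrodites at 9.5 hr, and 0.15 lower in hermaphrodites at 15 hr. The sign in hermaphrodites at 9.5 hr thus depends on whether FPKM or the all-gene median is the base. With FPKM rescaled to an equal sum in each group, the median in males at 15 hr was 0.17 in place of 0.34.

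Other abundant genes had nearly the same ratios. A set of non-member genes at or above the members' 10th percentile of FPKM in both groups, chosen after seeing the data, had median log2 ratios of 0.10 (34 genes) and 0.37 (55 genes) in males at 9.5 and 15 hr. In hermaphrodites it had −0.25 (39 genes) and −0.20 (70 genes). The members' medians were within 0.03 of these in all but the hermaphrodites at 15 hr, where they were 0.17 apart. In males at 9.5 and 15 hr the quartiles of these non-members were 0.11 and 0.17 apart, and in hermaphrodites 0.14 and 0.29. That was wider than for the members and narrower than for all genes. Past the 2-fold threshold were 0 and 1 of them in males and 0 and 1 in hermaphrodites. The set had to be abundant in both groups, so few genes with a large ratio could enter. Its spread and these counts therefore follow in part from that rule. The set also held rpa-0, rack-1, ubl-1 and ubq-2 in each comparison, which are ribosomal proteins or fusions that the naming pattern does not take. It held the elongation factor genes eft-3 and eft-4 as well. Its medians without these genes were not computed. The likeness of its medians to those of the members is thus in part a likeness among genes of the ribosome and of translation.

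**Figure D3:**
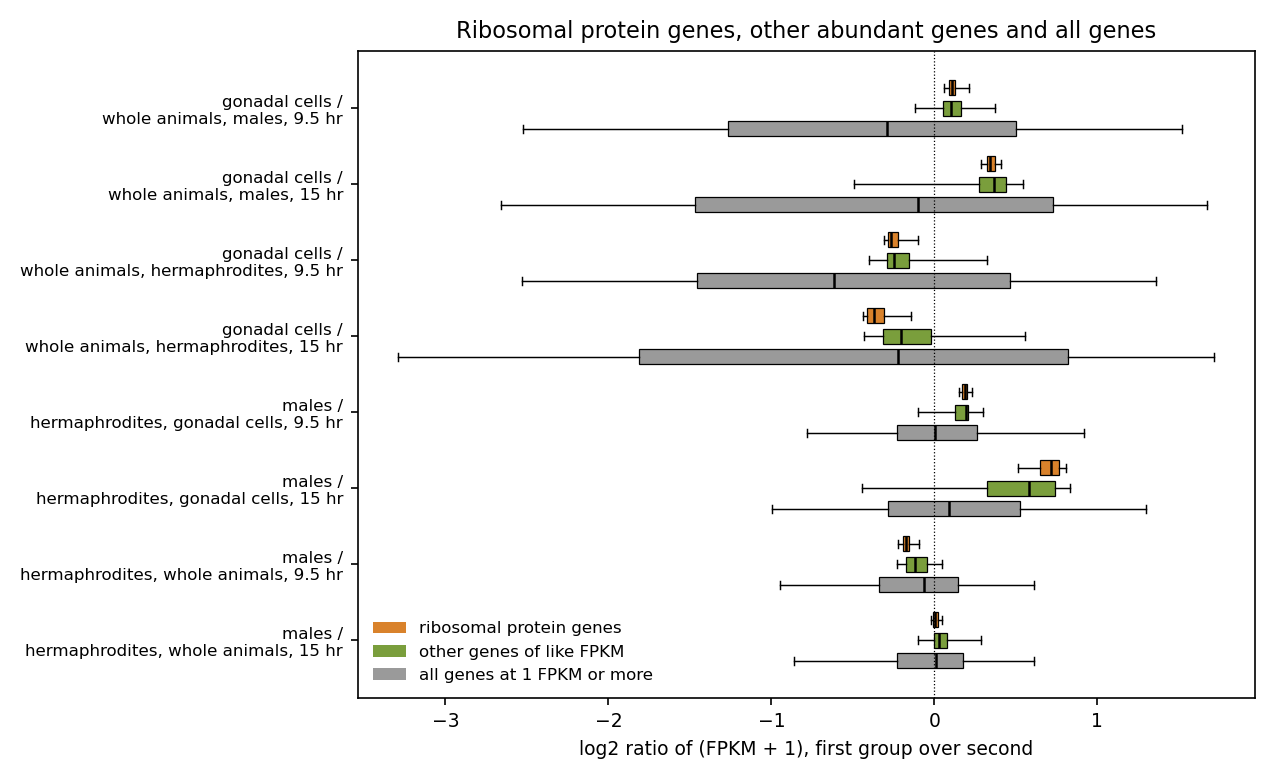
Log2 ratios of (FPKM + 1) for the ribosomal protein genes, for other genes at or above the members' 10th percentile in both groups and for all genes at 1 FPKM or more, in the 4 comparisons of gonadal cells over whole animals and the 4 of males over hermaphrodites. Boxes span the quartiles with the median and whiskers reach the 5th and 95th percentiles, and the members' boxes are narrow and near those of the other abundant genes, with their highest median, 0.72, in males over hermaphrodites in gonadal cells at 15 hr.

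The second comparison set males against hermaphrodites. In gonadal cells at 9.5 hr the ribosomal protein genes had a median log2 ratio of 0.19, 1.14-fold, and 77 of 78 genes were above 0. At 15 hr, after Z1 and Z4 had divided, the median was 0.72, 1.64-fold, and all 78 were above 0. In whole animals it was −0.18 at 9.5 hr, where only the males carried rdIs4, with 2 of 78 genes above 0. At 15 hr it was 0.01 in whole animals, with 46 of 77 above 0. The excess in males at 15 hr was thus present in gonadal cells and near 0 in whole animals of the same table. The difference between these comparisons was not tested, because no sample values were at hand. Over all genes the medians were 0.01 at 9.5 hr and 0.09 at 15 hr in the gonad, against −0.07 and 0.01 in whole animals.

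At 15 hr the subunits were again alike in gonadal cells, with medians of 0.74 for the small and 0.71 for the large subunit. The highest ratios were those of rpl-16, rps-9 and rps-0. For rps-0, the counterpart of human RPSA, the FPKM was 508 in male and 288 in hermaphrodite gonadal cells, a log2 ratio of 0.82. For rps-9 it was 566 in male and 321 in hermaphrodite gonadal cells, also 0.82. The lowest were rpl-24.2 at 0.12, rpl-25.1 at 0.36 and rpl-37 at 0.38. At a 2-fold threshold 1 member, rpl-16, was past it in gonadal cells at 15 hr, where 14.5% of all genes were. None was past it in gonadal cells at 9.5 hr (6.63% of all genes), in whole animals at 9.5 hr (6.14%) or in whole animals at 15 hr (5.41%).

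The abundant non-members had medians of 0.19 (43 genes) and 0.58 (53 genes) in gonadal cells at 9.5 and 15 hr, and −0.12 (63 genes) and 0.03 (116 genes) in whole animals. The same ribosomal protein and elongation factor genes were among these non-members. None of the non-members was past 2-fold in gonadal cells at either time or in whole animals at 9.5 hr, and 1 was in whole animals at 15 hr. At 15 hr the members' median in gonadal cells was 0.13 above that of the abundant genes and 0.62 above that of all genes. After rescaling to an equal sum it was 0.61 in place of 0.72. Transcripts of some other tissues also differed between the male and hermaphrodite sorted cells at 15 hr. The body wall muscle genes summed to 1514 FPKM in male against 837 FPKM in hermaphrodite gonadal cells, the hypodermal genes to 639 and 351 FPKM, and the neuronal genes to 511 and 336 FPKM. The pharynx genes went the other way, with 245 FPKM in male against 368 FPKM in hermaphrodite gonadal cells. They did so in whole animals at 15 hr too, with 369 and 542 FPKM. The pharynx list shares ceh-22 with the somatic gonad list, at 154 and 141 FPKM in male and hermaphrodite gonadal cells, and the hypodermal list shares lin-26. The germline genes summed to 672 and 622 FPKM and the intestinal genes to 225 and 194 FPKM in male and hermaphrodite gonadal cells. At the same time the 11 somatic gonad genes summed to 1092 FPKM in male against 811 FPKM in hermaphrodite gonadal cells. The part of these in the members' ratio was not tested.

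At 9.5 hr the highest male over hermaphrodite ratios in gonadal cells were those of rpl-25.1 at 0.30, rpl-33 at 0.25 and rpl-18 at 0.24, and the lowest those of rpl-42 at −0.36, rpl-37 at 0.09 and rps-21 at 0.14. The gene rpl-33 had 413 FPKM in male against 348 FPKM in hermaphrodite gonadal cells, and rpl-18 had 488 FPKM in male against 413 FPKM in hermaphrodite gonadal cells. In whole animals at 9.5 hr rpl-11.1, rpl-16 and rpl-38 were the lowest, at −0.41, −0.26 and −0.24, and rpl-42, rpl-25.1 and rpl-37 the highest, at 0.16, 0.03 and −0.02. In whole animals at 15 hr the extremes were small, with rps-27 at 0.11, rpl-25.1 at 0.10 and rps-22 at 0.05 the highest, and rpl-11.1 at −0.13, rpl-24.2 at −0.05 and rps-26 at −0.02 the lowest.

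Between the 2 times the values come from separate tables, normalised apart, and are given as a description. At 15 hr relative to 9.5 hr, the median log2 ratio of the members was −0.20 in male and −0.73 in hermaphrodite gonadal cells, and −0.43 in male and −0.62 in hermaphrodite whole animals. The all-gene medians were 0.03 and 0.05 in the gonadal cells and −0.11 and −0.19 in the whole animals. Members above 0 numbered 2 and 0 of 78 in male and hermaphrodite gonadal cells, and 1 and 0 of 78 in male and hermaphrodite whole animals. The later table thus listed nearly all members lower, and by the least in male gonadal cells. Members past 2-fold numbered 0 in male gonadal cells, where 23.5% of all genes were. There was 1 each in hermaphrodite gonadal cells (rpl-16, with 23.2% of all genes), male whole animals (rpl-42, with 17.9%) and hermaphrodite whole animals (rpl-42, with 20.8%).

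A few genes departed from the common ratio. The mean distance of a gene's log2 ratio from the members' median, over the 8 comparisons of cells and of sexes, was largest for rpl-42 (0.42), rpl-24.2 (0.37), rpl-11.1 (0.25), rpl-25.1 (0.18), rpl-37 (0.18), rps-27 (0.15) and rpl-16 (0.14). Among the 10 members with the lowest levels its median was 0.13, and among the other 68 it was 0.03. Of the 7 genes named, 5 (all except rps-27 and rpl-16) were among those 10.

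The gene rpl-24.2 stood apart in gonadal cells of both sexes. Its product resembles RPL24 but is closest to yeast Rlp24, an assembly factor of the large subunit that is replaced by RPL24 before the ribosome matures, while rpl-24.1 encodes the counterpart of RPL24 itself. The FPKM of rpl-24.2 was 387 in male and 336 in hermaphrodite gonadal cells at 9.5 hr, against 227 in male and 244 in hermaphrodite whole animals. At 15 hr it was 289.7 in male and 266 in hermaphrodite gonadal cells, against 208 in male and 215 in hermaphrodite whole animals. All 4 gonadal values were above all 4 whole-animal values. The log2 ratios of gonadal cells over whole animals were 0.77 and 0.48 in males and 0.46 and 0.31 in hermaphrodites at 9.5 and 15 hr, so that rpl-24.2 was higher in gonadal cells in hermaphrodites too, where nearly all members were lower. The FPKM of rpl-24.1 was 643 in male and 555 in hermaphrodite gonadal cells at 9.5 hr and 566 and 346 at 15 hr, with ratios over whole animals of 0.08, 0.30, −0.31 and −0.38 in males at 9.5 and 15 hr and hermaphrodites at 9.5 and 15 hr. The quotient of rpl-24.1 over rpl-24.2 was 1.66 and 1.65 in male and hermaphrodite gonadal cells at 9.5 hr, against 2.69 and 2.82 in whole animals, and 1.95 and 1.30 at 15 hr, against 2.21 and 2.09 in whole animals. In the tables the entry of rpl-24.2 (chrI:9665246-9670706) overlaps the entries of 2 other genes, so its level is less certain.

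The gene rpl-11.1 was set apart mainly by its level in whole animals at 9.5 hr. RPL-11 is the protein that, with RPL-5, carries the 5S RNA into the ribosome, and C. elegans has 2 genes for it. The FPKM of rpl-11.1 (chrV:3585324-3586063) was 524 in male and 471 in hermaphrodite gonadal cells at 9.5 hr, against 296 in male and 393 in hermaphrodite whole animals. At 15 hr it was 436 in male and 292 in hermaphrodite gonadal cells, against 316 in male and 347 in hermaphrodite whole animals. Its log2 ratio of gonadal cells over whole animals at 9.5 hr was 0.82 for males and 0.26 for hermaphrodites, and at 15 hr it was 0.46 and −0.25. The FPKM of rpl-11.2 (chrX:2241748-2242612) was 562 in male and 488 in hermaphrodite gonadal cells at 9.5 hr, against 521 in male and 588 in hermaphrodite whole animals, and its ratios of 0.11 and −0.27 were those of the other members. The quotient of rpl-11.1 over rpl-11.2 was 0.93 and 0.96 in male and hermaphrodite gonadal cells at 9.5 hr, against 0.57 and 0.67 in male and hermaphrodite whole animals. At 15 hr it was 0.87 and 0.97 in male and hermaphrodite gonadal cells, against 0.82 and 0.91 in whole animals. The 2 genes were nearer to equal in gonadal cells than in whole animals at 9.5 hr, and the gap was widest in male whole animals at that time. At 15 hr the quotients of gonadal cells and whole animals overlapped. Genes of a family can share short reads, and how the counting split them is not given in the sources used here.

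The pair rpl-25.1 and rpl-25.2 encodes versions of RPL23A, a protein at the mouth of the exit tunnel. In each of the 8 groups rpl-25.1 (chrX:4715147-4715769) was the lower, with 440.0 FPKM in male against 356 FPKM in hermaphrodite gonadal cells at 9.5 hr and 378 and 295 FPKM at 15 hr. The FPKM of rpl-25.2 (chrI:8329054-8329642) was 601 in male and 535 in hermaphrodite gonadal cells at 9.5 hr and 493 and 334 at 15 hr. Over whole animals at 9.5 hr rpl-25.2 had log2 ratios of 0.35 in males and 0.00 in hermaphrodites, which are 0.24 and 0.26 above the members' medians, against 0.16 and −0.12 for rpl-25.1. The quotient of rpl-25.1 over rpl-25.2 was 0.67 to 0.88 in gonadal cells and 0.72 to 0.83 in whole animals, so that the populations overlapped.

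The gene rpl-16, the counterpart of human RPL13A, had the lowest ratio of the members in gonadal cells over whole animals of hermaphrodites at 15 hr. Its FPKM in those gonadal cells was 203, against 346 in hermaphrodite whole animals at 15 hr, a log2 ratio of −0.77 where the members' median was −0.37. In male gonadal cells at 15 hr it was 441, against 346 in male whole animals. The log2 ratio of males over hermaphrodites in gonadal cells at 15 hr was 1.12, the highest of the members. At 9.5 hr the FPKM of rpl-16 was 496 in male and 436 in hermaphrodite gonadal cells, against 482 in male and 576 in hermaphrodite whole animals. The entry (chrIII:3502825-3505213) overlaps that of a second expressed gene.

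The gene rpl-42 was barely listed. Its FPKM was 0.57 in male and 1.01 in hermaphrodite gonadal cells at 9.5 hr and 1.00 and 0.19 at 15 hr, against 2.70 and 2.32 in male and hermaphrodite whole animals at 9.5 hr and 0.27 and 0.28 at 15 hr. Its log2 ratio of −1.24 in males at 9.5 hr rests on levels under 3 FPKM. Close by on chromosome II, the entry that the tables call rpl-41 was at 828 and 729 FPKM in male and hermaphrodite gonadal cells at 9.5 hr, against 762 and 880.3 FPKM in male and hermaphrodite whole animals. It precedes nuo-1 in the tables, in the place where RefSeq (assembly WBcel235) has rpl-36A, the worm's RPL36A. Of the others, rps-27, which encodes a zinc-binding protein of the small subunit, had 617 and 536 FPKM in male and hermaphrodite gonadal cells at 9.5 hr and 504 and 381 FPKM at 15 hr, and its ratio in hermaphrodites at 15 hr, −0.05, was the closest to 0 in the small subunit.

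**Figure D4:**
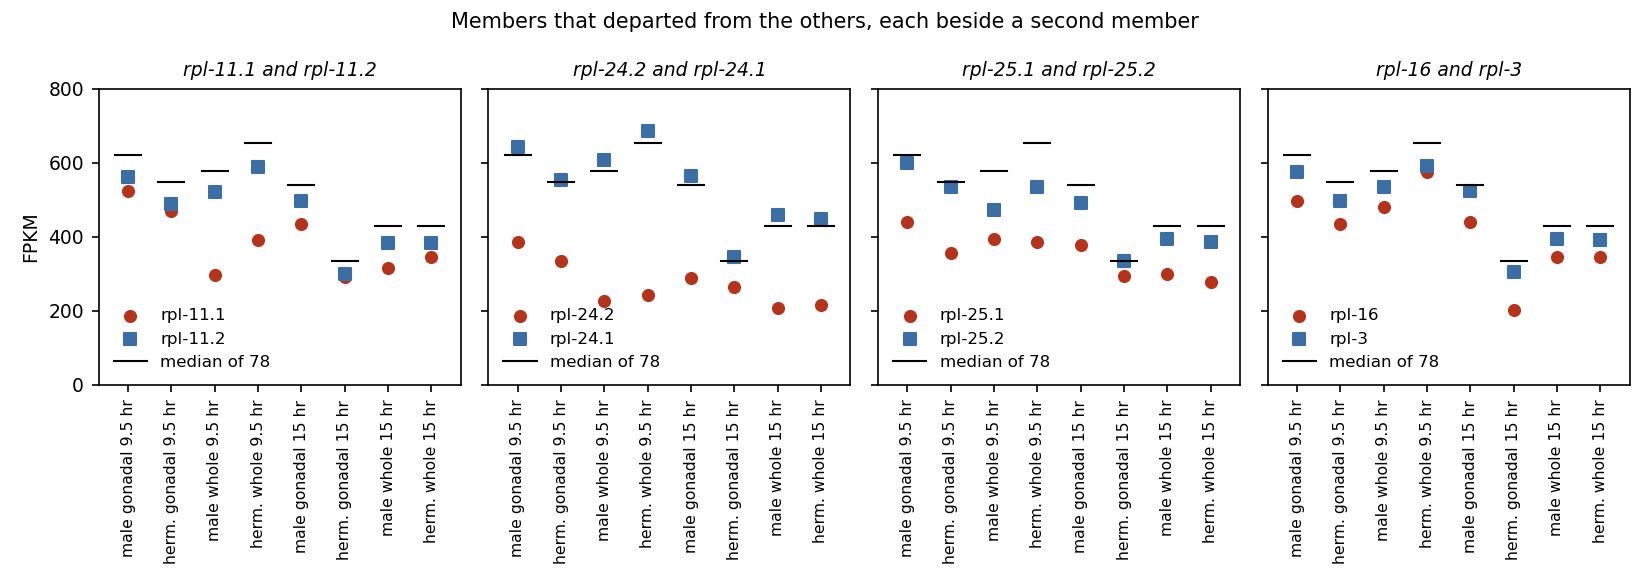
FPKM of rpl-11.1, rpl-24.2, rpl-25.1 and rpl-16 (red circles) in the 8 groups, each beside a second member (blue squares), with the members' median as a bar. At 9.5 hr the red and blue points of rpl-11.1 and rpl-11.2 nearly meet in gonadal cells and part in whole animals (296 against 521 FPKM in males). The gene rpl-24.2 is higher in the gonadal cells of both sexes than in the whole animals at both times.

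Ribosomal proteins that the naming pattern does not take had values like those of the members. The stalk protein P0, which anchors the acidic proteins, has the name rpa-0 in the tables, between pas-5 and tct-1, where RefSeq has rplp-0. Its FPKM was 594 and 518 in male and hermaphrodite gonadal cells at 9.5 hr and 529.9 and 294 at 15 hr, against 572 and 656 in male and hermaphrodite whole animals at 9.5 hr and 410.1 and 412 at 15 hr. The scaffold protein of the small subunit's head, rack-1, had log2 ratios of gonadal cells over whole animals of 0.10 and 0.38 in males and −0.26 and −0.43 in hermaphrodites at 9.5 and 15 hr. Those of ubl-1, a fusion of a ubiquitin-like protein with RPS27A, were 0.11, 0.33, −0.26 and −0.37, and those of ubq-2, a fusion of ubiquitin with RPL40, were 0.10, 0.28, −0.26 and −0.35. In male over hermaphrodite gonadal cells at 15 hr rpa-0, rack-1, ubl-1 and ubq-2 were at 0.85, 0.83, 0.71 and 0.67.

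Other genes of translation were set beside them in 6 lists. The tables hold no gene under the names used for mitochondrial ribosomal proteins. The list of elongation and release factors held 5 genes (eft-1 to eft-4 and tct-1), of which tct-1 and eft-1, a relative of elongation factor 2 in the spliceosome, are not elongation factors. They had median log2 ratios of gonadal cells over whole animals of 0.08 and 0.42 in males and −0.30 and −0.37 in hermaphrodites at 9.5 and 15 hr, close to the members. The gene eft-3, which encodes elongation factor 1-alpha, had 561 and 486 FPKM in male and hermaphrodite gonadal cells at 9.5 hr and 499 and 275 FPKM at 15 hr, against 544 and 622 FPKM in male and hermaphrodite whole animals at 9.5 hr and 392 in both at 15 hr. Within the list eft-1 was the highest, with ratios of 0.52 and 1.27 in males and 0.42 and 0.66 in hermaphrodites.

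The less abundant lists lay higher in gonadal cells. The 23 initiation factor genes had medians of 0.38 and 0.74 in males and 0.17 and 0.42 in hermaphrodites at 9.5 and 15 hr. At the ends of that list, pek-1, a kinase of the initiation factor eIF2 that responds to stress in the endoplasmic reticulum, was at 1.13, 1.28, 1.01 and 1.10, and iff-1, a germline form of eIF5A, at −1.46, −1.89, −1.59 and −1.95. The 31 genes taken as tRNA synthetases by name had medians of 0.39, 0.94, 0.37 and 0.59. Among them drs-2 was the highest in each comparison, at 1.25, 1.73, 1.16 and 1.71, and nrs-2 the lowest, at −1.42, −2.25, −1.87 and −2.91. The names do not separate enzymes of the cytosol from those of mitochondria, and what each named gene encodes was not checked. All of these medians were above 0 and above the all-gene medians.

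The list of ribosome assembly and rRNA synthesis lay far above the members. Of its 49 names 29 were in the tables, with medians of 0.71 and 1.06 in males and 0.61 and 1.01 in hermaphrodites at 9.5 and 15 hr. In males 4 of 29 at 9.5 hr and 16 of 29 at 15 hr were at least 2-fold higher in gonadal cells, where 10.9% and 16.4% of all genes were. In hermaphrodites 4 of 29 and 15 of 29 were, where 9.41% and 19.2% of all genes were. Most of all genes were less abundant than this list, and no set of like abundance was formed for it. At 15 hr the 90th percentile over all genes was also higher in gonadal cells. It was 125 against 96.0 FPKM in males and 124 against 95.5 FPKM in hermaphrodites. Examples were nol-10, with 209 FPKM in male gonadal cells, against 72.2 FPKM in male whole animals at 15 hr, nol-6, with 113 FPKM in the same cells, against 38.7 FPKM, and exos-2, a subunit of the exosome that trims rRNA, with 90.1 FPKM in hermaphrodite gonadal cells, against 24.3 FPKM in hermaphrodite whole animals at 15 hr. The gene ncl-1, known as a repressor of nucleolar size, was the lowest except in males at 15 hr, where ebp-2 was lower at 0.14. It had ratios of −0.57 and 0.25 in males and −0.84 and −1.16 in hermaphrodites. In male over hermaphrodite gonadal cells at 15 hr ncl-1 was at 1.43, with 93.7 FPKM in males and 34.1 FPKM in hermaphrodites, while the list's median was 0.17 and that of the ribosomal protein genes 0.72. The list also holds ebp-2 and lpd-2, which are not known for ribosome assembly, and leaving them out moved none of its medians by more than 0.1.

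**Figure D5:**
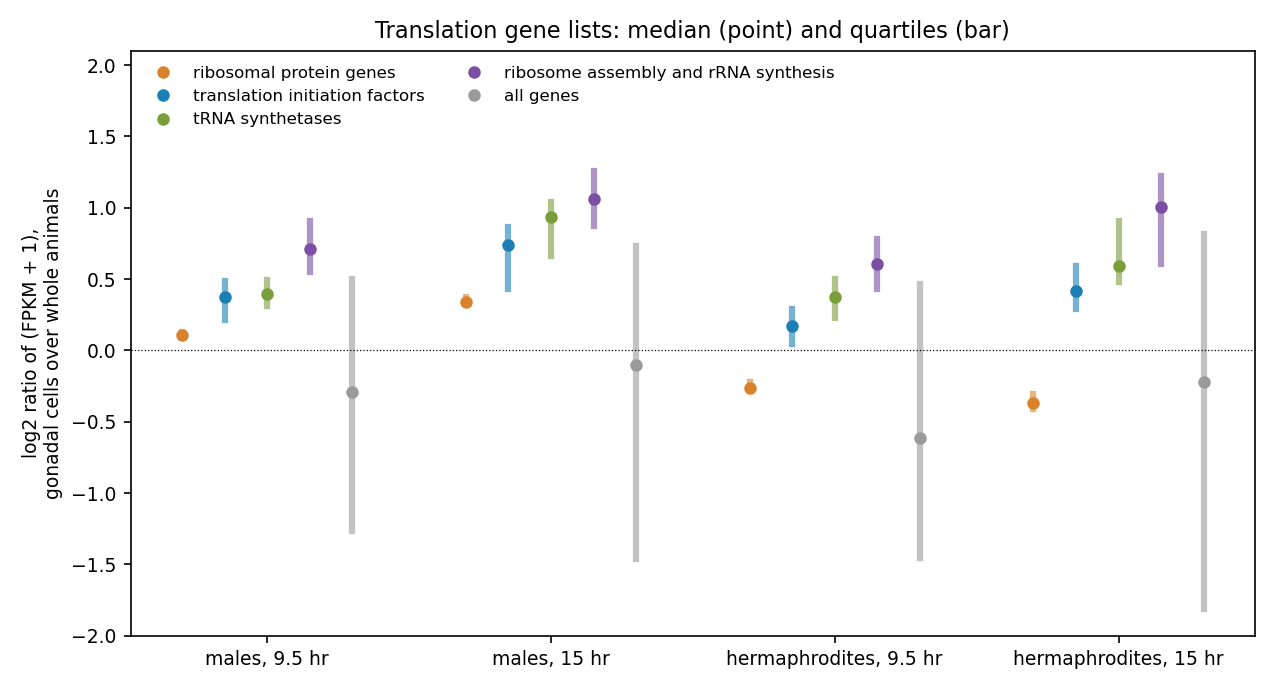
Median (point) and quartiles (bar) of the log2 ratio of (FPKM + 1), gonadal cells over whole animals, for the ribosomal protein genes, 3 lists of other translation genes and all genes, in each sex and time. Among the series drawn, the ribosome assembly list is the highest in all 4 comparisons, at 0.61 to 1.06. The ribosomal protein genes are below the 3 lists drawn, at −0.37 to 0.34. The elongation list, with medians of −0.37 to 0.42, and the growth signalling list, with medians of 0.57 to 0.87, are not drawn.

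Genes of growth signalling to translation had medians above 0 in gonadal cells over whole animals. The list was not split into genes that promote and genes that restrain growth, so its medians give no direction of signalling. No set of like abundance was formed for it either. The 12 of 15 names found had median log2 ratios over whole animals of 0.87 and 0.78 in males and 0.61 and 0.57 in hermaphrodites at 9.5 and 15 hr, and daf-2 or pdk-1 below 0 in each. In males 4 of 12 at both times were at least 2-fold higher, where 10.9% and 16.4% of all genes were, and in hermaphrodites 3 and 2 of 12, where 9.41% and 19.2% of all genes were. The gene aak-1, a catalytic subunit of AMP-activated kinase, had 175 and 150.1 FPKM in male and hermaphrodite gonadal cells at 9.5 hr, against 29.5 and 45.1 FPKM in male and hermaphrodite whole animals. The gene akt-2, a kinase of the insulin pathway, had 104.4 and 128 FPKM in male and hermaphrodite gonadal cells at 15 hr, against 33.7 and 35.7 FPKM in male and hermaphrodite whole animals. At the low end at 9.5 hr was daf-2, the insulin receptor gene, with ratios of −0.46 in males and −0.35 in hermaphrodites, followed by the S6 kinase gene rsks-1 at 0.39 and 0.26. At 15 hr it was pdk-1, a kinase upstream of AKT, at −0.31 in males and −0.41 in hermaphrodites.

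The 78 genes were spread unevenly over the chromosomes. Chromosome I held 22, III and IV held 18 each, II held 10, V held 8 and X held 2. The X chromosome thus had 2.56% of the members and 13.98% of all genes in the tables, and both members on it, rpl-11.2 and rpl-25.1, have a copy of the same number on an autosome. Median male over hermaphrodite ratios in gonadal cells at 15 hr were 0.73 for members on chromosome I, 0.73 on II, 0.75 on III, 0.70 on IV, 0.61 on V and 0.54 for the pair on X.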

How the data were processed

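The RNA was depleted of rRNA and sequenced as single reads. The submitters' processing notes name CASAVA 1.8, TopHat 1.4.1, Picard 1.56, Cuffdiff 2.1.1 and the build ce10, with no role given for Picard. The authors deposited 2 Cuffdiff tables, 1 per time, with FPKM pooled over the samples of each of 4 groups. The deposited columns of the authors' comparisons (fold changes, test statistics, p-values and q-values) were not used. No per-sample column was left unused (0). Depth per sample was not given in the tables. An entry without a gene name (0.18% to 0.29% of the summed FPKM) was left out.

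Each group's FPKM was read through its strain name. Ratios used a pseudocount of 1 FPKM, a minimum of 1 FPKM in 1 of the 2 groups and a 2-fold threshold, and no test was run. The ratio script was tested on simulated data. Exon and coding lengths came from Ensembl 115 (WBcel235) by gene name, for 15267 genes. Coordinates are 1-based in ce10. Named genes were the 3 highest and 3 lowest members per comparison of cells and sexes and per subunit, members under 10 FPKM, structural and paired members, and the 2 ends of each translation list. Members and lists were chosen with earlier results of these data known. Python 3.11.15, pandas 2.3.3 and scipy 1.17.1 were used.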

Additional observations from a re-analysis of the deposited data

How the results depend on the processing

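No paired analysis was possible because each value was pooled over the samples of its group, and for the same reason no replicate could be left out. Leaving out members with short RefSeq proteins was not run, and members with under 300 coding bases (9) were left out in its place, a choice made after seeing the data, as was leaving out rpl-42. The 12 medians kept their sign and moved by no more than 0.1 with other pseudocounts, without the filter, at 10 FPKM in both groups, and without paired, short or rpl-42 members. Centred on the median of all genes, gonadal cells over whole animals were at 0.40 and 0.44 in males and 0.35 (reversed) and −0.15 in hermaphrodites at 9.5 and 15 hr, males over hermaphrodites in whole animals at 15 hr at −0.0032 (reversed), and 15 hr over 9.5 hr at −0.32 and −0.43 in male and hermaphrodite whole animals. Rescaled to an equal sum, the medians were 0.17 in males at 15 hr, 0.61 in males over hermaphrodites in gonadal cells at 15 hr, −0.0012 (reversed) in whole animals at 15 hr and −0.32 in male gonadal cells over time. Counts of members past the threshold, 0 or 1 each, moved with rpl-42 and the base. They were 0 at a pseudocount of 10, at 10 FPKM in both groups and without rpl-42 in males at 9.5 hr and in both whole-animal time comparisons, and 0 at 4-fold. At a pseudocount of 0.1 they were 1 in males at 15 hr and hermaphrodites at 9.5 hr, and 2 in gonadal cells between sexes at 15 hr and in hermaphrodite gonadal cells over time. After centring they were 2 in males and 1 in hermaphrodites at 9.5 hr. The 8 shares stayed within 1.5 times of the values given. Of the lists, centring reversed the elongation genes in hermaphrodites at 9.5 hr (0.32) and between sexes in whole animals at 15 hr (−0.0091), and, between sexes in whole animals at 9.5 hr, the tRNA synthetases (0.021) and the assembly genes (0.025), which follows from the all-gene medians. It moved another 19 of the 40 list medians by over 0.1, all in gonadal cells over whole animals, such as the initiation factors in hermaphrodites at 9.5 hr (0.78 in place of 0.17).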
